A study of Mus musculus with 16 samples.

Results

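Scart1 and Scart2 are 2 scavenger receptors of γδ T cells, listed in the count tables under the symbols Cd163l1 and 5830411N06Rik, and they are 2 of the 32285 genes of the tables. They were taken by symbol, without use of their values, and read in 33564 γδ T cells of 11 hashtagged samples (arms) and in 20533 cells of 3 CITE-seq libraries of lymph node (LN), all with at least 1000 transcript molecules counted by unique molecular identifier (UMI). Both genes had UMIs in every arm. The γδ T cells were sorted as live CD45+ CD3e+ TCRβ- TCRγδ+ cells from young adult male C57BL/6J mice, and hashtag antibodies marked the arm before several arms were loaded together as 1 of 5 pools. Liver arms were from untreated mice (D0), from mice on chow with 0.1% DDC, that is 3,5-diethoxycarbonyl-1,4-dihydrocollidine, which blocks small bile ducts and gives a cholestatic liver injury, for 5, 9 or 19 days (D5, D9, D19), from mice given DDC for 18 days and then control chow for 7 days (STOP), and from Mgl2-DTR mice on DDC for 5 days (D5-DT). Mgl2-DTR mice carry the diphtheria toxin receptor at the Mgl2 locus, so that toxin, given on day -1 and day 2, removes Mgl2-expressing (CD301b+) cells; no arm held toxin-treated mice without the receptor. LN arms, from nodes that drain the liver, were D0, D5, D19, STOP and D5-DT. The D19 pool of LN is also annotated as days 18 and 19 in the submitters' description. Each condition and tissue was 1 arm, the number of mice in an arm was not given, and liver and LN shared a pool only at D5-DT.

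Scavenger receptors of the cysteine-rich (SRCR) family are membrane or secreted proteins built from repeats of 1 conserved domain, and CD5, CD6 and CD163 are its best-known members. IL-17-producing γδ T cells (γδ T17) leave the mouse thymus already committed, mostly with a Vγ6 or a Vγ4 receptor chain; Vγ6 cells pair with the delta chain gene Trdv4 and settle in tissues, while Vγ4 cells are found in skin and in LN and recirculate. Scart1 and Scart2 are known as surface markers of these γδ T17 cells.

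Both genes lie on the plus strand of chromosome 7 (GRCm38.p6, the build of the RefSeq table and the same release family as the mm10 reference of the counts). Cd163l1 spanned 140197218 to 140231145, 33928 bases, and 5830411N06Rik spanned 140247279 to 140300734, 53456 bases, with 16133 bases and 0 annotated genes between them. The annotated neighbours were olfactory receptor genes, which are used by sensory neurons: Olfr522 (1 UMI over all arms), Olfr523 (2 UMIs), Olfr525 (43 UMIs) and Olfr524 (252 UMIs), the last of which lies within the Cd163l1 span, against 29608 UMIs of Cd163l1 and 9867 of 5830411N06Rik. The pseudogene Gm6314 beside 5830411N06Rik is not in the count tables. Because the members are neighbours that separate cells in the data below, their promoter windows (250 bases before to 50 after the first RefSeq start in the table, plus strand; the Cd163l1 start, 140218267, lies inside the span given above) are shown, with matches in capitals to AGGTCA (the core of nuclear receptor sites), CCACCC (Krüppel-like factors) or TGCTGA (the core of MAF sites), searched on both strands.
Cd163l1 (chr7:140218017-140218316): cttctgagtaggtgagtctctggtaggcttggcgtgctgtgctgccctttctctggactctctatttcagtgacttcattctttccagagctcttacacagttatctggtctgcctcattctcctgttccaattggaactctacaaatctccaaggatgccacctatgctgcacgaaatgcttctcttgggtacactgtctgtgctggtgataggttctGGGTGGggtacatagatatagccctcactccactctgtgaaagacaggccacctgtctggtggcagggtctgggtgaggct
5830411N06Rik (chr7:140247051-140247350): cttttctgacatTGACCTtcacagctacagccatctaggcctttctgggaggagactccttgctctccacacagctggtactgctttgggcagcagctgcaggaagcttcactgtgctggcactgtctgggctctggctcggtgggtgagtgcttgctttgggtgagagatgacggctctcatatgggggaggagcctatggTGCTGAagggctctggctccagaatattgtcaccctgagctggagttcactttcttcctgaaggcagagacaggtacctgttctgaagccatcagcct
The Cd163l1 window held 1 match, to the Krüppel-like motif, and the 5830411N06Rik window held 1 match to the nuclear receptor motif and 1 to the MAF motif. None of the matches in these windows overlapped another. The windows of starts 2 and 3 of 5830411N06Rik, not shown, each held 1 AGGTCA and 2 TGCTGA matches. In both, a TGCTGA match overlapped the AGGTCA match. Of 32851 mouse promoter windows of the same length, 16.3% held AGGTCA, 31.5% CCACCC and 19.5% TGCTGA, so each match is of a common kind. The longest run of bases that the windows shown shared was 9.

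The pools held 13074668 to 71447265 RNA UMIs, the median cell of an arm held 2713 (liver D19) to 5249 (LN STOP) UMIs and 2.68 to 3.60% mitochondrial UMIs, and at most 0.368% of cell barcodes were shared by any pair of matrices. The cells were grouped into 25 clusters without using either gene, and 5 clusters with 12864 cells were γδ T17-like by their markers (Il23r, Il17re, Blk, Sox13 and others). These clusters made up 27.6% of the T cells of liver D0, 36.2% of D5, 83.5% of D9, 81.3% of D19, 84.5% of STOP and 38.7% of D5-DT, and 3.11, 7.49, 29.2, 25.4 and 9.20% of LN D0, D5, D19, STOP and D5-DT. The sort left other cells in some LN arms: 394 of 833 cells of LN D19, 345 of 806 of LN STOP and 312 of 1236 of LN D5-DT fell in no T cell cluster. One γδ T17-like cluster, numbered 12, stood apart with a median of 1258 UMIs per cell and 10.01% mitochondrial UMIs, and it held 35.4% of the γδ T17-like cells of liver D5-DT and 54.1% of those of LN D5-DT, against 4.19 to 20.5% in the other arms.

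Scart1 was far higher in the liver arms than in the LN arms, and within liver it was highest after the diet was stopped. Over all sorted cells its level was 162 CPM (UMIs of the gene per 1000000 UMIs of the arm) in liver D0, 205 in D5, 502 in D9, 367 in D19, 706 in STOP and 233 in D5-DT, and 25.0, 40.9, 39.8, 44.9 and 44.0 CPM in LN D0, D5, D19, STOP and D5-DT. The exact Poisson 95% intervals of the 6 liver arms did not overlap their neighbours in the order STOP, D9, D19, D5-DT, D5, D0. In LN only D0 (interval 21.5 to 28.9 CPM) stood below the rest, and the other 4 arms overlapped their neighbours. The LN arms held unequal shares of cells outside T cell clusters, and over T cell clusters alone the LN levels were 26.7, 44.0, 107, 95.7 and 62.03 CPM in the same order. There LN D19 (92.2 to 123 CPM) and STOP (83.8 to 109 CPM) overlapped and stood above the other LN arms. These intervals cover counting error only. The share of cells with a Scart1 UMI was 24.1, 32.8, 61.3, 52.5, 70.0 and 31.8% over the liver arms in the same order of time and 4.94 to 9.48% in LN, and it was 11.5 to 46.2% and 2.09 to 4.68% when every cell was thinned to 1000 UMIs. B cells, which should lack the gene, held a Scart1 UMI in 2.81% of 1102 cells (median 3434 UMIs per cell). These B cells lay nearly all in LN arms, so their share is no background for the liver arms, whose lanes held 193 to 489 CPM of Scart1 in RNA outside cells.

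Scart2 followed the same course in liver up to D19 but not after it, and it differed less between the tissues. Its level was 43.3 CPM in liver D0, 60.3 in D5, 140 in D9, 110 in D19, 113 in STOP and 67.4 in D5-DT, and 19.9, 36.3, 33.2, 59.5 and 31.8 CPM in LN D0, D5, D19, STOP and D5-DT. Over T cell clusters alone the LN levels were 19.2, 39.1, 89.6, 113 and 45.5 CPM. Over all cells liver D9 stood above all other arms, D19 and STOP overlapped, and LN STOP overlapped liver D5. Cells with a Scart2 UMI made up 8.45, 13.8, 26.4, 17.04, 16.9 and 13.9% of the liver arms and 5.70, 9.56, 7.56, 11.7 and 8.66% of the LN arms. In B cells of all lanes the share was 4.17% and the level 17.2 CPM. The B cells of LN D0 itself had 14.4 CPM (7.17 to 25.7), an interval that holds the 19.9 CPM of that arm.

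**Figure D1:**
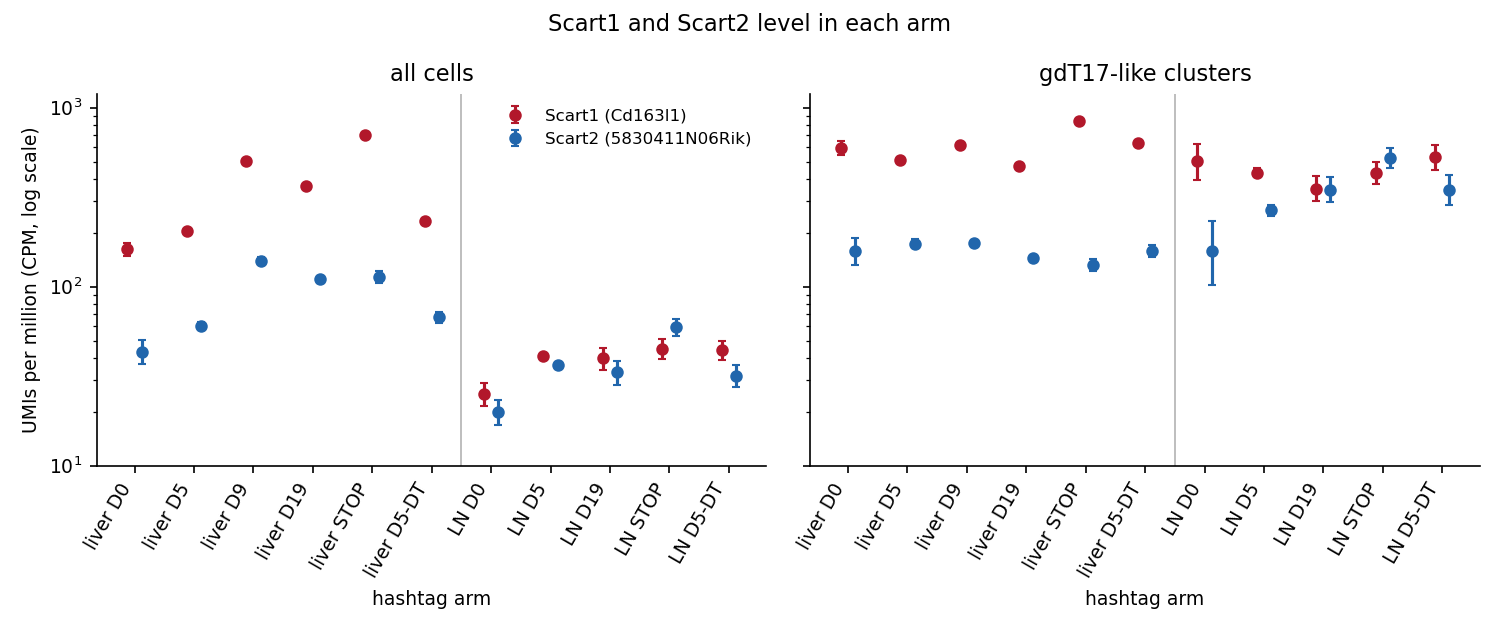
Level of Scart1 (red) and Scart2 (blue) in CPM on a log axis for the 11 arms, over all sorted cells (left) and over cells of γδ T17-like clusters (right); bars are exact Poisson 95% intervals, which cover counting error only. In the left panel Scart1 sits at 162 to 706 CPM in liver and at 25.0 to 44.9 CPM in LN. In the right panel it sits at 470 to 847 CPM in liver and at 353 to 529 CPM in LN, while Scart2 is higher in LN than in liver at D5, D19, STOP and D5-DT.

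Most UMIs of both genes came from γδ T17-like cells. In liver these clusters held 90.5% of the Scart1 UMIs and 91.8% of the Scart2 UMIs. In LN they held 63.5% of the Scart1 UMIs and 49.5% of the Scart2 UMIs, and naive T-like cells (Ccr7, Lef1 and others) held a further 11.3% and 32.9%. The naive T-like cells of LN D5 (3816 cells, median 3856 UMIs) had 16.4 CPM of Scart1 and 46.3 CPM of Scart2, with a Scart2 UMI in 13.0% of cells, whereas B cells of the same arm had 10.4 and 10.7 CPM and a Scart2 UMI in 3.92%. Scart2 in the naive T-like cells was thus above its level in B cells of the same lane by more than Scart1 was.

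Within γδ T17-like cells Scart1 varied less over the arms than over all cells, and Scart2 varied mainly in LN. Scart1 stood at 595, 510, 616, 470, 847 and 632 CPM in liver D0, D5, D9, D19, STOP and D5-DT and at 501, 433, 353, 433 and 529 CPM in LN D0, D5, D19, STOP and D5-DT. Liver STOP (820.5 to 874 CPM) stood above all other arms. LN D5, STOP and D19 had the lowest levels, with the interval of LN D5 below that of liver D19. LN STOP, on 200 UMIs against 1295 in LN D5, was not set apart from liver D19. Each of the remaining arms overlapped its neighbour in the order of levels. Scart2 stood at 157, 174, 175, 144, 132 and 158 CPM in liver and at 158, 267, 349, 524 and 348 CPM in LN, where LN STOP (460 to 595 CPM) was separate, LN D19, D5-DT and D5 overlapped their neighbours, and LN D0 and the 6 liver arms lay below them. In the cells of γδ T17-like clusters a Scart1 UMI was found in 61.0 to 79.7% of liver and 41.9 to 52.3% of LN cells, and a Scart2 UMI in 18.8 to 33.3% of liver and 36.4 to 53.0% of LN cells. The highest number of UMIs in 1 γδ T17-like cell was 17 for Scart1 and 15 for Scart2, both in liver D9.

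With 1 arm per condition in each tissue, no comparison between conditions within a tissue could be tested, and condition effects over both tissues were not tested, so folds are given with the share of all genes that moved as far. From liver D5 to D9, in the same pool, both genes were higher at D9 by over 2-fold on the scale of log2(CPM + 10), by 1.25 for Scart1 and 1.09 for Scart2, where 0.483% of 14292 genes were higher by that much (1.56% in either direction). As a plain log2 ratio with its exact conditional 95% interval, Scart1 was 1.29 (1.24 to 1.34) higher and Scart2 1.21 (1.11 to 1.31) higher. Over T cell clusters they were 1.24 and 1.17 higher, with 1.48% of genes past 2-fold. Within γδ T17-like cells the same step was 0.27 (0.21 to 0.33) for Scart1 and 0.00 (-0.10 to 0.11) for Scart2, with 0.149% of genes past 2-fold. In bulk sums over all sorted cells, more γδ T17 cells and more transcript per cell cannot be told apart, and the γδ T17-like share moved from 36.2 to 83.5% over this step.

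The other steps in liver were under 2-fold for both genes. From liver D0 to D5 the log2 ratio was 0.34 (0.22 to 0.47) for Scart1 and 0.48 (0.24 to 0.72) for Scart2 over all cells (0.735% of genes past 2-fold in either direction), and 0.32 and 0.44 over T cell clusters (0.148%). Among γδ T17-like cells it was -0.22 (-0.36 to -0.08) and 0.15 (-0.11 to 0.42), with 0.743% of genes past 2-fold. With cells thinned to 1000 UMIs the Scart1 value there was -0.50 (-0.77 to -0.22). From D9 to D19, across pools, it was -0.45 (-0.50 to -0.40) and -0.35 (-0.43 to -0.26) over all cells (0.66%), and -0.39 and -0.28 inside γδ T17-like cells (0.437%).

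After DDC was stopped the members differed in course in liver, over all cells and in γδ T17-like cells. In liver, STOP stood above D19 of the same pool by 0.94 (0.89 to 0.999) for Scart1 and by 0.04 (-0.09 to 0.17) for Scart2 over all cells, with 1% of genes past 2-fold, and T cell clusters gave 0.95 and 0.03 (0.879%). The γδ T17-like cells alone gave 0.85 (0.79 to 0.91) and -0.13 (-0.26 to 0.00), with 0.872% of genes past 2-fold. In liver T cells outside the γδ T17-like clusters both were higher at STOP, by 0.90 (0.62 to 1.18) and 1.41 (0.76 to 2.04). The Scart2 value there rested on 34 against 60 UMIs. Scart1 stood there at 138 against 73.5 CPM, below its level in RNA outside cells of the liver lanes given above. Cluster 0, described below with its share of droplets with more than 1 tag, is among these cells. The part of either was not tested. In LN, STOP stood above D19 of the same pool by 0.17 (-0.10 to 0.45) for Scart1 and 0.84 (0.57 to 1.12) for Scart2 over all cells, where 8.14% of genes passed 2-fold. Over T cell clusters of LN they were -0.16 (-0.44 to 0.13) and 0.34 (0.05 to 0.63), with 1.02% of genes past 2-fold. The LN values inside γδ T17-like cells were 0.29 (-0.02 to 0.61) and 0.59 (0.29 to 0.89), with 6.05% of genes past 2-fold. The LN intervals of the members overlapped inside γδ T17-like cells, and with cells thinned the Scart2 value there was 0.23 (-0.32 to 0.79).

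In LN both genes were higher at D5 than at D0 of the same pool, by 0.71 (0.49 to 0.93) for Scart1 and 0.87 (0.63 to 1.12) for Scart2, where 0.12% of genes passed 2-fold. Over T cell clusters the values were 0.72 (0.49 to 0.95) and 1.02 (0.76 to 1.30), with 0.0514% of genes past 2-fold. Inside γδ T17-like cells Scart1 was -0.21 (-0.54 to 0.14) and Scart2 0.75 (0.18 to 1.39), on 44 cells of LN D0, with 6.51% of genes past 2-fold. With cells thinned they were -0.62 (-1.16 to -0.03) and 0.44 (-0.47 to 1.52). From LN D5 to D19, across pools, the ratio was -0.04 (-0.26 to 0.17) and -0.13 (-0.37 to 0.10) over all cells (12% of genes past 2-fold). Over T cell clusters, which leave out 394 of the 833 cells of LN D19, both members were higher at D19 by over 2-fold, by 1.28 (1.06 to 1.49) for Scart1 and 1.20 (0.96 to 1.43) for Scart2, where 2.93% of genes were past 2-fold. The ratios were -0.29 (-0.54 to -0.05) and 0.39 (0.13 to 0.64) inside γδ T17-like cells (6.55%).

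In toxin-treated Mgl2-DTR mice neither member differed from D5 by 2-fold over the cells kept, but the Scart2 values moved with the cell filter. Against D5 of another pool, liver D5-DT was 0.18 (0.11 to 0.25) for Scart1 and 0.16 (0.03 to 0.28) for Scart2 over all cells (0.784% of genes past 2-fold), and 0.31 (0.23 to 0.38) and -0.14 (-0.28 to -0.00) inside γδ T17-like cells (0.286%). LN D5-DT was 0.11 (-0.08 to 0.29) and -0.19 (-0.41 to 0.02) over all cells (4.14%), 0.50 (0.30 to 0.69) and 0.22 (-0.01 to 0.44) over T cell clusters (0.263%), and 0.29 (0.04 to 0.52) and 0.38 (0.08 to 0.68) inside γδ T17-like cells (4.19%). Without the low-depth clusters, which took a larger share of both D5-DT arms, the Scart2 difference over all cells was -0.49 in liver and -0.71 in LN, the Scart1 difference was -0.10 in LN, and inside γδ T17-like cells the Scart2 difference was -1.12 (-1.32 to -0.92) in liver and -0.48 (-0.96 to -0.03) in LN. With every cell thinned to 1000 UMIs, the γδ T17-like values were 0.58 (0.34 to 0.81) and 1.07 (0.62 to 1.51). No direction of Scart2 at D5-DT held across these settings in either tissue.

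The tissue comparison could be tested over the 5 conditions measured in both, with condition as a block. Over all T cell clusters Scart1 was higher in liver by 2.34 on the log2 scale (SE 0.16, edgeR quasi-likelihood adjusted p = 3.98e-05), in 5 of 5 pairs, and Scart2 by 0.57 (SE 0.15, adjusted p = 0.0234). At STOP the Scart2 CPM was the same in liver and LN (113 each, log2 ratio -0.00, -0.21 to 0.20). Of 10903 genes tested 23.6% passed, 13.7% higher in liver and 9.86% higher in LN, and the median gene moved by -0.02. Scart1 ranked 26 by p and Scart2 ranked 1814. The Scart2 call was lost when any of 6 arms was left out (liver D0, D5 or D5-DT, LN D0, D5 or D5-DT), and it was 0.44 (adjusted p = 0.0786) without the low-depth clusters.

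Inside γδ T17-like cells the members went in opposite directions. Scart1 was higher in liver by 0.47 (SE 0.11, edgeR adjusted p = 0.0127), in 5 of 5 pairs. Scart2 was lower in liver by -1.05 (SE 0.18, edgeR adjusted p = 5.16e-04), with 1 of 5 pairs higher in liver after TMM scaling. Of 8892 genes 7.46% passed (4.07% higher in liver and 3.39% higher in LN). The Scart1 call was lost without liver STOP (0.33) or LN STOP (0.36, adjusted p = 0.0699). By condition, liver over LN for Scart1 was 0.25 at D0, 0.24 at D5, 0.41 at D19, 0.97 at STOP and 0.26 at D5-DT. For Scart2 it was -0.01 (-0.64 to 0.67) at D0, -0.61 at D5, -1.27 at D19, -1.99 at STOP and -1.14 at D5-DT. Tissue and pool cannot be told apart except at D5-DT, where both tissues were in 1 pool and the intervals were 0.03 to 0.50 for Scart1 and -1.44 to -0.83 for Scart2. In that pair the values without the low-depth clusters were 0.18 (-0.08 to 0.45) and -1.34 (-1.81 to -0.84).

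Scart1 and Scart2 marked largely separate cells among γδ T17-like cells. Of the 12864 cells, 7553 had UMIs of Scart1 alone, 2515 of Scart2 alone, 842 of both and 1954 of neither, where independence within each arm gives 2162 cells with both. Cells with both were 7.72% of the positive cells (Clopper-Pearson 95% interval 7.22 to 8.23%). The observed count was below the expected one in each of the 11 arms: 6 against 31.8 cells in liver D0, 150 against 321 in D5, 193 against 497 in D9, 264 against 678 in D19, 89 against 218 in STOP and 59 against 179 in D5-DT. In LN it was 3 against 8.36 in D0, 57 against 161 in D5, 8 against 26.6 in D19, 7 against 26.0 in STOP and 6 against 16.98 in D5-DT. The ratio ran from 0.188 in liver D0 to 0.468 in liver D5, and its counting interval reached 1 only in LN D0, on 3 cells.

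**Figure D2:**
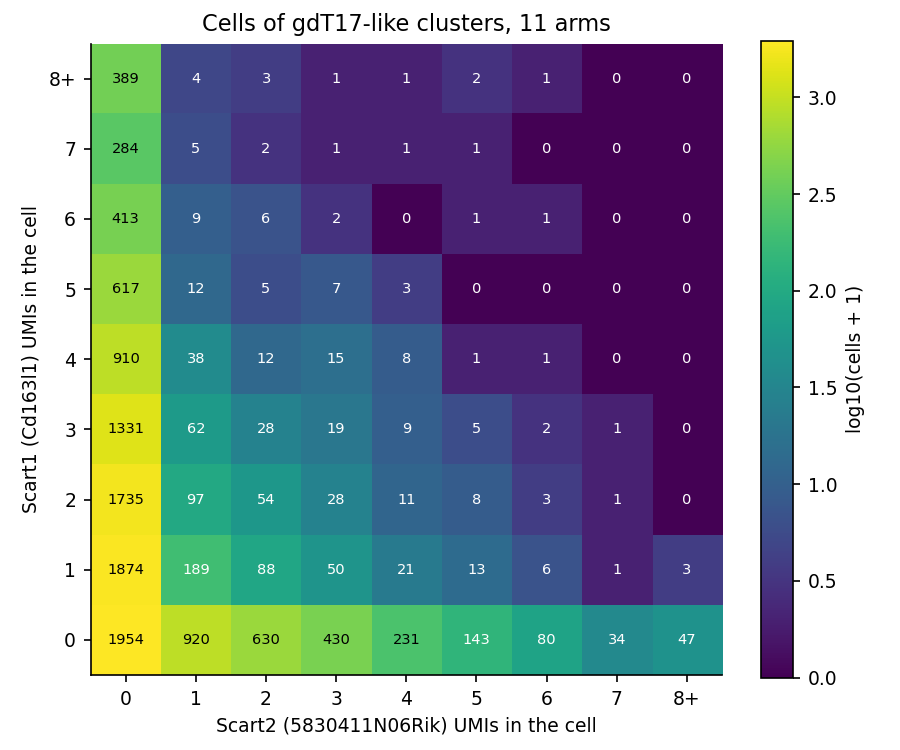
Number of γδ T17-like cells of the 11 arms by their Scart2 UMIs (horizontal axis) and Scart1 UMIs (vertical axis), with 8 standing for 8 or more; the colour is log10 of the number of cells plus 1. The cells lie along both axes and thin out away from them, with 389 cells at 8 or more Scart1 UMIs and no Scart2 UMI.

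Cells with more transcripts of the pair also held mostly 1 of the genes. Among 2573 γδ T17-like cells with at least 5 UMIs of both genes together, 2223 (86.4%) had UMIs of 1 gene only and in 151 (5.87%) the larger count was under 2 times the smaller. Scart1 was the major gene in 2076 of these cells and Scart2 in 465. Droplets with 2 hashtags had at least 10 UMIs of a second tag and a top tag under 3 times it. Whether they held 2 cells, and of which kinds, was not tested, so they are no reference for a known mixture. There 97 of 458 γδ T17-like droplets had both genes against 117 expected (ratio 0.828). Both genes were found in 22.6% of the positive droplets, and 68.4% of those with at least 5 UMIs had 1 gene only. Of the 842 cells with both genes, 62 (7.36%) were among the highest Scrublet doublet scores, against 3.10% of cells with 1 gene, and their median depth was 3883 against 3396 UMIs. Free RNA of a pool, read from barcodes under 100 UMIs, also carried both genes (46.2 to 489 CPM of Scart1 and 36.5 to 104 CPM of Scart2). Its part in the cells with both genes was not tested, and with 2 or more UMIs required of each gene the ratio to the expected count was 0.244.

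Over all sorted cells, of several kinds, cells with both genes were fewer than expected in the liver arms together and more than expected in LN. The expected number takes all these kinds together, so it cannot show whether the members are separate within 1 kind. Among γδ T17-like cells alone the ratio was 0.396 in the liver arms and 0.340 in the LN arms. In the liver arms 839 cells had both genes against 1569 expected within arms (ratio 0.535). In the LN arms 166 cells had both against 104 expected (ratio 1.59). Liver D5 had 188 against 187. In T cells outside the γδ T17-like clusters both genes met more often than expected in both tissues, in 68 cells against 32.01 in liver (ratio 2.12) and 79 against 37.8 in LN (ratio 2.09). Liver D0 (1 against 1.23) and liver STOP (2 against 3.12) were below the expected number. The cells with both had a median of 9253.5 UMIs in liver and 5362 in LN, against 5629 and 4815 in cells with 1 of the genes. The part of depth, doublets or the mix of cell kinds was not tested.

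Single-positive cells were mostly Scart1 cells in liver and about evenly of both kinds in LN. Among γδ T17-like cells with UMIs of 1 gene, the Scart1 share was 76.5, 71.0, 73.6, 78.5, 85.3 and 75.3% in liver D0, D5, D9, D19, STOP and D5-DT. In LN it was 60.6, 53.1, 53.5, 43.3 and 48.4% in D0, D5, D19, STOP and D5-DT. The groups did not overlap, and the liver arm was above the LN arm of the same condition by 25.5 percentage points on average (SD 10.3, n = 5 pairs, 15.9 to 41.99, exact two-sided sign-flip permutation p = 0.0625, the smallest that 5 pairs allow). Over all sorted cells the difference was 29.9 points (SD 8.99, n = 5 pairs, same exact permutation p). The gap between liver and LN was widest at STOP, where the liver share was at its highest and the LN share at its lowest.

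**Figure D3:**
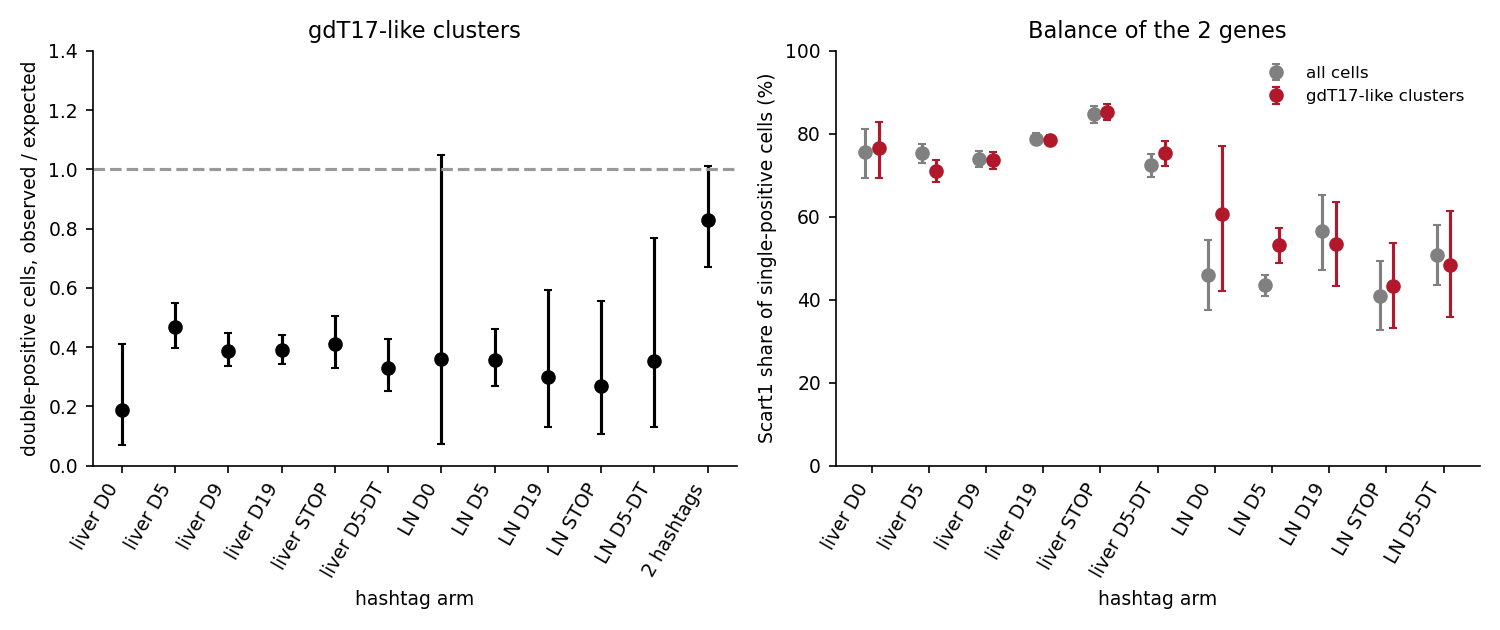
Left, cells with UMIs of both genes divided by the number expected from independence within the arm, among γδ T17-like cells of 11 arms and in droplets with 2 hashtags (bars, exact Poisson 95% intervals; dashed line, the expected number); right, Scart1 share of cells with UMIs of 1 of the genes, in per cent, over all sorted cells and over γδ T17-like cells (bars, Clopper-Pearson 95% intervals). The arms sit between 0.188 and 0.468 on the left, below the 2-hashtag droplets at 0.828, and on the right every liver arm is at 71.0% or above and every LN arm at 60.6% or below.

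The members also split the γδ T17-like clusters, which were built without them. Cluster 6 (3524 cells, led by Areg, Trdv4, Hilpda and Ltb4r1) had 689 CPM of Scart1 and 84.5 CPM of Scart2. Cluster 8 (2828 cells, led by Icos, Crem and Dkk3, mostly from liver D19) had 551 and 39.9 CPM, and cluster 9 (2791 cells, with Tns4, Ltb4r1 and Tcrg-V6 among its leading genes) had 647 and 98.0 CPM. Cluster 7 (2635 cells, led by Ramp3, Pxdc1, Lmo4, Rgcc and Ccr6) was the reverse, with 164 CPM of Scart1 and 462 CPM of Scart2, and a Scart2 UMI in 66.2% of cells. The low-depth cluster 12 had both, 891 and 669 CPM. Cluster 0 (465 cells with markers of cytotoxic γδ T and NK cells, median 8418 UMIs per cell) had a Scart1 UMI in 74.4% of cells at 299 CPM, at a depth well above that of the γδ T17-like clusters. It held 906 droplets before those with no single tag were left out, 48.7% of them with more than 1 tag, and the part of doublets in its Scart1 level was not tested.

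To describe what else separates the cells, T cells with at least 2 UMIs of 1 gene and none of the other were summed per arm, 5689 Scart1-only and 1386 Scart2-only cells in liver and 535 and 515 in LN, and compared with arm as a block. The members themselves were left out of the test. Of 6187 genes, 467 (7.55%) were higher in Scart1-only and 526 (8.5%) in Scart2-only cells (edgeR quasi-likelihood, adjusted p under 0.05), 16% together. Of these, 53 and 49 were past 2-fold, and 135 and 62 had the same sign in all 11 arms. The median gene moved by -0.00. At a class threshold of 1 UMI, 867 of the 993 genes were called again in the same direction.

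Genes of the Vγ6 receptor gave the largest differences. Trdv4, the delta chain of Vγ6 cells, was higher in Scart1-only cells by 5.60 (SE 0.17, edgeR adjusted p = 4.35e-19), with 945 to 1538 CPM against 13.9 to 43.8 CPM over the liver arms and 453 to 1063 against 3.79 to 30.4 CPM over the LN arms. Tcrg-V6 was higher by 5.70 (SE 0.19, adjusted p = 4.67e-18), with means of 222 against 4.39 CPM in liver and 127 against 5.61 CPM in LN. Tcrg-V4 was higher in Scart2-only cells, by -2.71 (SE 0.18, adjusted p = 2.92e-11), with 9.40 against 65.4 CPM in liver and 8.83 against 35.8 CPM in LN. For all 3 chains the ranges of the classes did not overlap in either tissue. Counted by cell, a UMI of Tcrg-V6 or Trdv4 was found in 93.1% of the liver Scart1-only cells and 7.86% of the Scart2-only cells, and in 69.9% and 3.30% in LN. A UMI of Tcrg-V4 or Trdv5 was found in 4.50% and 31.7% in liver and in 5.98% and 22.3% in LN, so most Scart2-only cells had no UMI of either receptor. The 240 liver cells with at least 2 UMIs of both Scart genes held the Vγ6 chains in 35.8% and the Vγ4 chains in 37.9%.

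Of the other genes, Clnk, an adaptor of immune receptor signalling, was higher in Scart1-only cells by 4.06 (SE 0.22, edgeR adjusted p = 2.27e-13), at 101 to 155 against 3.48 to 23.4 CPM in liver and 54.0 to 108 against 0 to 8.31 CPM in LN. Pdcd1, the inhibitory receptor PD-1, was higher by 2.47 (SE 0.13), at 237 to 447 against 27.2 to 72.1 CPM in liver and 36.0 to 116 against 0 to 17.003 CPM in LN. Both separated the classes fully in both tissues. Bcl2a1a, a survival factor, was higher by 2.52 and Npnt, a matrix protein, by 2.43. Hbegf, an EGF receptor ligand, was higher by 2.24, Nrp1, a semaphorin and VEGF co-receptor, by 2.03, Slc6a13, a GABA transporter, by 1.98 and Frmd4a by 1.87. On the Scart2-only side, Ccr9, a gut and thymus homing receptor, differed by -2.60 (SE 0.20, adjusted p = 2.19e-10), at 3.18 to 17.4 against 37.6 to 132 CPM in liver, with overlapping ranges in LN. Tsc22d1 differed by -2.22, Fyb, an adaptor of T cell adhesion, by -1.92, and Gm12840 by -1.71. Dusp10, a phosphatase of MAP kinases, differed by -1.57, Gpr146 by -1.52, Socs3, an inhibitor of cytokine signalling, by -1.43, Ttc28 by -1.38 and Faah, a lipid amide hydrolase, by -1.32.

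**Figure D4:**
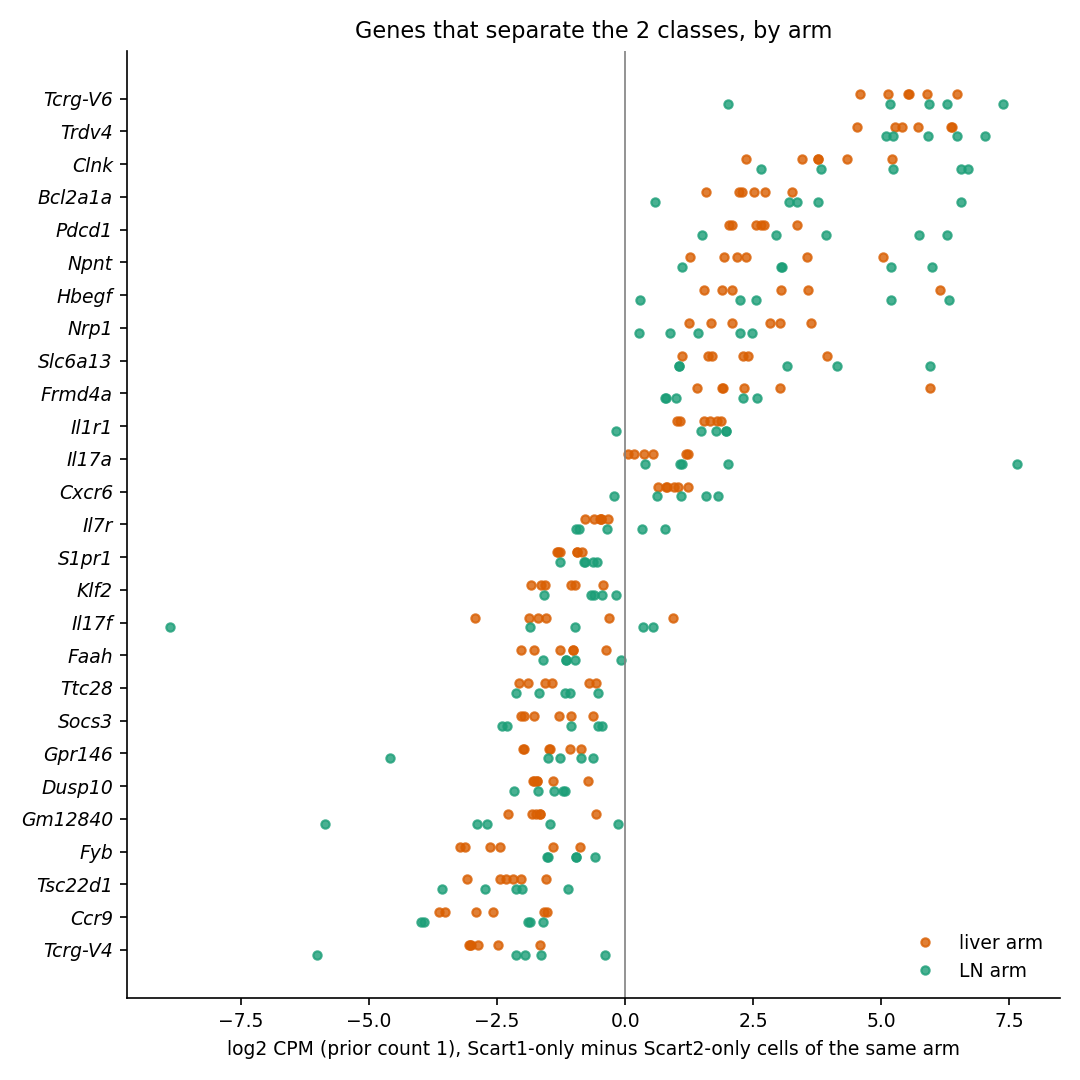
Difference in log2 CPM between Scart1-only and Scart2-only cells of the same arm (horizontal axis, positive where Scart1-only cells were higher; 1 point per arm, 6 liver and 5 LN arms) for the 20 genes with the largest called changes of 1 sign in all arms and 7 genes of the lists. Trdv4, Tcrg-V6 and Clnk lie right of 0 and Tcrg-V4, Ccr9 and Tsc22d1 left of 0 in all 11 arms, and Il17f crosses 0.

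Both classes expressed genes of the IL-17 programme, at different levels. Of 12 effector genes 10 were tested, and 7 were higher in Scart1-only and 3 in Scart2-only cells (median 0.71), where 7.55% and 8.5% of all genes were. Il17a was higher in Scart1-only cells by 0.78 (SE 0.16, edgeR adjusted p = 7.04e-04), in 11 of 11 arms, with means of 1876 against 1212 CPM in liver and 559 against 242 CPM in LN, and its ranges overlapped. Il17f went the other way by -1.87 (SE 0.23, adjusted p = 1.53e-06), with 47.1 against 133 CPM in liver and 16.5 against 96.5 CPM in LN, although Scart1-only cells were higher in 3 of 11 arms. Areg, an EGF receptor ligand of tissue repair, was higher by 2.11 in 10 of 11 arms, Il1r1, a receptor that drives IL-17 release, by 1.37, and Ltb4r1, a leukotriene receptor, by 1.30. Il17re and Il7r were higher in Scart2-only cells, by -0.60 and -0.46. Of 8 lineage factors 6 were tested, and 5 were higher in Scart1-only cells (among them Zbtb16 by 1.65, Blk 0.61, Rora 0.44 and Maf 0.40), while Sox13 gave 0.07 (adjusted p = 0.657).

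The called genes of residency were higher in Scart1-only cells and those of circulation in Scart2-only cells, where 7.55% and 8.5% of all genes were called. Of 7 residency genes tested 4 were higher in Scart1-only and 0 in Scart2-only cells (median 0.86): Pdcd1, Cxcr3 by 1.25, Prdm1 by 0.89 and Cxcr6, a receptor that holds T cells in liver, by 0.86. Cd69 (0.30), Itgae (-0.37) and Rgs1 (0.11) did not pass. Of 8 circulation genes 6 were higher in Scart2-only cells and 0 in Scart1-only cells (median -1.06). S1pr1, the receptor used to leave LN, differed by -1.03 (SE 0.09, edgeR adjusted p = 1.47e-09), with 111 against 244 CPM in liver and 229 against 402 CPM in LN. Klf3 differed by -1.43, Ccr7 by -1.23, Tcf7 by -1.20 and Klf2, a regulator of S1pr1, by -1.09, with Lef1 and Itgb7 not past the threshold. Of 7 chemokine receptors 3 were higher in each class. Ccr6, a marker of IL-17 cells, was higher in Scart2-only cells by -1.31 (adjusted p = 8.51e-09), with 63.3 against 160 CPM in liver, and Ccr2 was higher in Scart1-only cells by 0.63.

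The study tied predicted regulons of some factors to each gene in these same samples, so these factors are not independent evidence. Regulon activity was not measured here, only the transcript of each factor's own gene. Of the factors linked to Scart1, transcripts of Rora, Maf and Irf4 (0.93) were higher in Scart1-only cells and of Xbp1 in Scart2-only cells (-0.31). Of those linked to Scart2, Klf2 and Klf4 (-1.09 each) were higher in Scart2-only cells, and Jund gave -0.17 (adjusted p = 0.222). Among 6 tested genes of receptor stimulation, Icos was higher in Scart1-only cells (0.62) and Nr4a1 in Scart2-only cells (-0.70). Of 15 further SRCR genes 4 passed the filter on low counts: Lgals3bp was higher in Scart1-only cells by 0.33 (adjusted p = 0.0186), Prss12 in Scart2-only cells by -1.14 (adjusted p = 8.60e-05), and Cd5 and Cd6 gave 0.16 and 0.36 (adjusted p = 0.596 and 0.384). The other 11, among them Cd163 and Marco, stood at 11.4 CPM or below in the γδ T17-like cells of every arm.

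Signs of other cells and of handling moved with the classes, and their part in the differences was not tested. Median mitochondrial share was higher in Scart2-only cells in all arms except LN D5 and LN STOP, where the classes were about equal, and in liver D5-DT it was 7.52% at a median of 2054.5 UMIs, against 2.46% at 5652 UMIs in Scart1-only cells. Of 8 dissociation genes 5 were higher in Scart2-only cells and 0 in Scart1-only cells (Fos -0.75, Fosb -0.67, Atf3 -0.69, Hspa1a -0.81, Hspa1b -0.82). For this count and those of naive and B cell markers below, the share of all 6187 genes was 8.5% higher in Scart2-only and 7.55% in Scart1-only cells. Naive T cell markers were higher in Scart2-only cells for 5 of 6 tested, with a summed level of 379 to 891 against 203 to 421 CPM in liver and 756 to 2134 against 472 to 1121 CPM in LN. Of the Scart2-only cells, 59.1% of LN D0, 41.0% of LN D5 and 27.0% of LN D5-DT lay in naive clusters. Of the Scart1-only cells of these arms, 15.6, 9.76 and 5.26% did. In LN D19 and STOP the shares were 0 and 3.70% of Scart2-only cells. B cell markers were at 78.6 to 195 against 36.7 to 121 CPM in liver, both genes tested being higher in Scart2-only cells. When γδ T17-like clusters alone were used, 952 of 953 called genes that were tested again kept their sign and 848 were called again.

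The difference between the classes itself differed between tissues for 4 genes (0.0647% of 6187; arm-blocked interaction test). Ramp3, a receptor activity-modifying protein, was lower in Scart1-only than in Scart2-only cells of liver (75.9 against 218 CPM) and about equal in LN (80.8 against 88.8 CPM), a change of 1.53 (SE 0.29, edgeR adjusted p = 0.0347). Lgals3, a galectin, was at 65.0 against 123 CPM in liver and 80.2 against 32.3 CPM in LN, a change of 2.50 (SE 0.37, adjusted p = 0.00243). The cell cycle genes Smc2 and Hmgb2 differed between the classes in LN (114 against 28.5 and 1117 against 473 CPM) and little in liver (37.7 against 36.9 and 641 against 609 CPM).

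Correlation over single cells within an arm, averaged over the 11 arms, gave for Scart1 the genes Trdv4 (mean Pearson r 0.62, 0.47 to 0.73 between arms), Tcrg-V6 (0.43), Ccr2 (0.41), Serpinb1a, Blk, Tcrg-C1 and Ltb4r1 (0.40 each), and Il1r1, Tmem176b and Actn2 (0.37 each), of 8927 genes. For Scart2 it gave Ccr6 (0.27, 0.14 to 0.48), Il7r (0.26), Ramp3, Abi3bp and Nav2 (0.24 each), Igf1r and Pde5a (0.23 each), Il18r1 (0.22), and Emb and Rgcc (0.21 each). Of these, Ccr6, Abi3bp, Nav2, Igf1r and Il18r1 were also among the leading genes of the low-depth cluster 12, and 8 of the 10 genes were in the list without the low-depth clusters. The cells of an arm share a lane, and depth enters every r, so these values are a description. The Scart1 values were higher than those of Scart2, which had fewer UMIs (9867 against 29608), and the lists held no gene in common. Of the Scart2 list, Il18r1, Emb and Igf1r had a higher r with Scart1 (0.29, 0.25 and 0.25) than with Scart2. The other genes of that list had a lower r with Scart1 than with Scart2.

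Inside γδ T17-like cells the list for Scart1 was Trdv4 (0.58), Tcrg-V6 and Trdc (0.37 each), Tcrg-C1 (0.36), Clnk (0.29), Gm36723 (0.28), Pdcd1 (0.27), Il1r1 (0.25), Cxcr6 (0.24) and Serpinb1a (0.23). Its lowest value of 7678 genes was with 5830411N06Rik, at -0.55 (-0.63 to -0.39), against -0.10 over all cells. For Scart2 the list was Fyb (0.31), Ms4a4b (0.26), Klf2 and mt-Atp6 (0.22 each), Tcrg-V4 and Ccr6 (0.21 each), and mt-Co1, Gm12840, S1pr1 and mt-Cytb (0.20 each), and the lowest was Trdv4 at -0.59. Mitochondrial transcripts made up 3 of the 10 Scart2 genes, beside the 10.01% mitochondrial UMIs of the low-depth cluster 12, whose part was not tested.

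The CITE-seq libraries held LN cells sorted into fractions by CD45, CD11c and Pdpn and mixed at equal ratios. They were not enriched for γδ T cells, and levels over all their cells depend on that mix. Scart1 was at 1.36 (1.03 to 1.77) CPM in D0, 1.41 (1.06 to 1.83) in D5 and 0.27 (0.117 to 0.532) in D19. Scart2 was at 0.825 (0.572 to 1.15), 1.58 (1.22 to 2.03) and 0.405 (0.209 to 0.707) CPM. The D19 values rested on 8 UMIs of Scart1 and 12 of Scart2. Median depths were 4905, 4774 and 3345 UMIs per cell. The D5 library is described as day 6 elsewhere in the labels. In all, 68 cells had a Scart1 UMI and 79 a Scart2 UMI, and 6 had both. Independence over all these cells, of every kind together, gave 0.262 cells with both. In 6807 B cells 1 UMI of each gene was found, 0.0428 CPM.

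Most positive cells of these libraries carried the αβ and not the γδ receptor constant gene: 51 of 68 Scart1-positive cells (75.0%) and 57 of 79 Scart2-positive cells (72.2%) had Trac UMIs and no Trdc UMI. Per cell the order was the reverse. In 67 cells with Cd3e, at least 2 Trdc UMIs and no Trac UMI, the levels were 33.1 CPM (17.6 to 56.6) of Scart1 and 20.4 CPM (8.79 to 40.1) of Scart2, with a UMI in 8.96% and 7.46% of cells. In 6280 Trdc-negative cells with Cd3e and Trac or Trbc UMIs, they were 2.14 and 1.96 CPM, with a UMI in 0.796% and 0.924% of cells. Sorted γδ T cells also had some Trac, at 118 CPM in liver Scart1-only cells, beside 2642 CPM of Trdc. Cluster 11 (649 cells, led by Gzmm, Ctla2a, Ly6c2 and Nkg7, with Cd8a UMIs in 71.8%) held 61.7% of the Scart1 UMIs and 39.4% of the Scart2 UMIs, at 14.4 and 8.39 CPM. Of its 41 Scart1-positive and 33 Scart2-positive cells, 92.7% and 97.0% had a Cd8a UMI. There 3 cells held both genes against 2.08 expected, too few to show whether the members were separate. Cluster 3 (809 cells, named regulatory T-like from its markers) held 8.14 CPM of Scart2 and 1.97 CPM of Scart1, and 1 of its cells had both against 0.124 expected. Its 20 Scart2-positive cells had Trdc UMIs in 40.0% and Il23r UMIs in 45.0%, which goes against the name of the cluster for these cells.

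**Figure D5:**
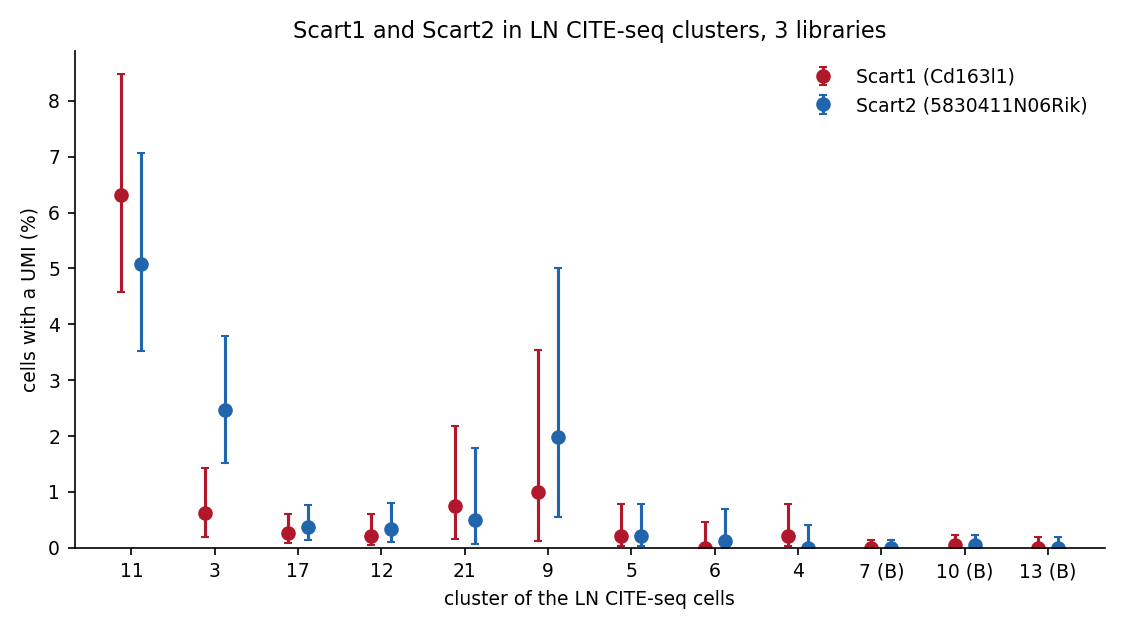
Share of cells with a Scart1 (red) or Scart2 (blue) UMI, in per cent, in clusters of the LN CITE-seq cells and in the B cell clusters; bars are Clopper-Pearson 95% intervals. Cluster 11 stands highest for both genes at 6.32% and 5.08%, cluster 3 follows for Scart2 at 2.47%, and the B cell clusters lie near 0.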

How the data were processed

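Gene expression was measured by droplet single-cell RNA sequencing (10x Genomics 3′ chemistry) in 5 pools of hashtagged γδ T cells and 3 LN CITE-seq libraries, 16 RNA and tag samples in all. The authors deposited raw, unfiltered matrices of UMI counts made with Cell Ranger on mm10. Unless otherwise stated, barcodes with at least 1000 RNA UMIs were kept as cells, and a cell was given to an arm when its top tag had at least 10 UMIs and at least 3 times the next. Of 35616 cells, 2052 had no 1 clear tag. Cells were clustered with scanpy 1.11.5 (2000 variable genes, 30 principal components, 15 neighbours, Leiden resolution 1, both members left out) and named from marker lists; doublets were scored with Scrublet and kept, and 2-tag droplets were left out of arms. UMIs were summed per arm, or per arm and class, and tested with edgeR 4.0.16 (quasi-likelihood, TMM, filterByExpr, Benjamini-Hochberg). DESeq2 1.42.0 was an alternative, as were other cell filters, HTODemux, thinning, subtraction of free RNA and leaving out each arm. On simulated data of the same size, the class comparison recovered 100% of genes changed 2-fold, the tissue comparison 74.2% and the interaction 32.0%. The simulation gave every arm 1 shared profile and 1 fixed spread, and changed only genes past the low-count filter. Its recovery need not hold for arms that vary more. Levels and UMIs of both genes set side by side are 3′ counts, with no correction for how well each gene is captured. Arms serve as replicates over conditions, so p-values measure the spread between arms, and nothing states how many mice each held. The numbers shared by liver and LN arms are conditions, not animals. The genes named are the members, those with the 10 highest correlations, the 10 largest called changes of the same sign in every arm in each direction, and the gene lists. The members, lists and tests were chosen with earlier results of these data known. No columns of other series were present. Some genes of the lists are counted but not reported here by name.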

Additional observations from a re-analysis of the deposited data

Results flagged for a closer look

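The difference between Scart1-only and Scart2-only cells differed between LN and liver, in the interaction test, for Smc2 (LN minus liver 1.46 on the log2 scale, SE 0.29, edgeR adjusted p = 0.0347), Hmgb2 (1.13, SE 0.22, adjusted p = 0.0347), Ramp3 (1.53, SE 0.29, adjusted p = 0.0347) and Lgals3 (2.50, SE 0.37, adjusted p = 0.00243). The number of such genes ran from 1 (without LN D19, liver D19 or liver D9) to 14 with each arm left out in turn.

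In 3 contrasts a member had opposite signs in the tissues with both intervals clear of 0, and the difference between the tissues was not tested, as each side is 1 pair of arms. Scart2 in γδ T17-like cells of D5-DT against D5 was -0.14 in liver and 0.38 in LN, but both were negative without the low-depth clusters (-1.12 and -0.48) and both positive with cells thinned (0.58 and 1.07). Scart1 in the T cells outside the γδ T17-like clusters was 0.90 for STOP against D19 in liver and -0.77 in LN. That LN value rested on 32 against 38 UMIs (16.3 against 27.7 CPM, interval -1.49 to -0.05). B cells of all lanes had 11.2 CPM. In the T cells outside the γδ T17-like clusters D5-DT against D5 was -1.00 in liver and 0.52 in LN for Scart1. The liver levels behind 0.90 (138 against 73.5 CPM) and -1.00 (37.5 against 75.0 CPM) lay below the free RNA levels of the liver lanes. The part of free RNA was not tested.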

How the results depend on the processing

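Of 446 alternative values of the comparisons, 362 kept direction and side of the threshold or moved by less than their interval, and 84 changed, 2 of them reversed. Of 126 values of the log2 ratios inside γδ T17-like cells, 13 changed, 3 of them reversed. The reversed ones over all cells were Scart2 in liver D5-DT against D5 (0.16), which was -0.27 in cells with at least 2000 UMIs and -0.49 without the low-depth clusters, an alternative chosen after seeing the data. It was 0.0212 with the cell quality filter and 0.68 thinned. Scart1 for that contrast (0.18) was 0.26 without high Scrublet scores, 0.27 with HTODemux and 0.35 thinned. Liver D9 over D5 for Scart1 (1.29) was 1.38 without high Scrublet scores and 1.35 after free RNA was subtracted, D19 over D9 (-0.45) was -0.35 thinned and -0.51 without free RNA, and STOP over D19 (0.94) was 0.88 thinned. LN D19 over D5 thinned was 0.76 for Scart1 and 0.53 for Scart2 (-0.04 and -0.13). LN D5-DT over D5 for Scart1 (0.11) was -0.10 without the low-depth clusters, 0.31 thinned and -0.17 without free RNA, and for Scart2 (-0.19) it was -0.63 at 2000 UMIs, -0.71 without the low-depth clusters and 0.79 thinned. Inside γδ T17-like cells, Scart2 in D5-DT over D5 (-0.14 in liver, 0.38 in LN) was in liver -0.73 at 2000 UMIs, -0.37 with the quality filter, -1.12 without the low-depth clusters and, reversed, 0.58 thinned. In LN it reversed to -0.24 at 2000 UMIs and -0.48 without the low-depth clusters, and was 1.07 thinned. Thinned, Scart2 in LN STOP over D19 (0.59) was 0.23, and Scart1 was -0.50 in liver and -0.62 in LN for D5 over D0 (-0.22 and -0.21). Over T cell clusters only, also chosen after seeing the data, Scart1 and Scart2 were 1.28 and 1.20 in LN D19 over D5, -0.16 and 0.34 in LN STOP over D19 (0.17 and 0.84), and 0.50 and 0.22 in LN D5-DT over D5, and Scart1 was 0.27 in liver D5-DT over D5. This alternative leaves out the cells outside T cell clusters. The cause of the other changes was not tested.

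The ratio of cells with both genes to the expected number in γδ T17-like cells (0.389) was 0.244 at 2 UMIs and 0.323 thinned, and the share with both (7.72%) was 3.08% and 3.35%. Over all cells the ratio (0.601) was 0.411 and 0.467, and the share (7.48%) 3.18% and 3.10%. In the CITE-seq libraries thinned values were 1.05 CPM for Scart1 at D5, and 0.448 and 0.598 CPM for Scart2 at D0 and D5.

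In the class comparison, no filter on low counts gave 990 genes higher in Scart1-only cells (467), and LN arms alone gave 41 and 40 genes. With no replicate block, that is without arm as a block, 122 and 149 genes were called. Leaving out 1 arm gave 354 to 560 and 355 to 574 genes. All 455 alternative values of the 20 genes with the largest called changes kept sign and call, and the genes of the lists were not rerun one by one. These 20 genes were chosen for the same sign in every arm, so their kept signs are no separate support. Settings where a gene was not tested are not counted (Gpr146 has 16 values and Npnt 18, against 24 for Trdv4). The count of class by tissue genes (4) was 12 without high Scrublet scores, 16 at a class threshold of 1 UMI, 10 with sums per pool, 9 without the low-depth clusters, 54 with no filter and 1 to 14 with 1 arm left out: 1 without LN D19, liver D19 or liver D9, 2 without LN D5, LN STOP or liver STOP, 7 without LN D0, 8 without liver D0, and 14 without liver D5 or liver D5-DT.

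For liver against LN in all T cells, Scart2 (0.57) was 0.44 (adjusted p = 0.0786) without the low-depth clusters, 0.66 (adjusted p = 0.256) with no replicate block, and 0.43 to 0.70 (adjusted p = 0.00743 to 0.0727) with 1 arm left out; Scart1 was 2.19 to 2.45. The counts were 1081 to 1365 genes higher in liver and 635 to 838 in LN, the LN count lower by over 1.5 times without liver D5 (656), LN D0 (713), LN D5 (635) or LN D5-DT (684). Inside γδ T17-like cells, Scart1 (0.47) was 0.53 (adjusted p = 0.128) with no replicate block and 0.33 to 0.53 (adjusted p = 0.0105 to 0.108) with 1 arm left out, and Scart2 was -1.21 to -0.78. The counts there (362 and 301) were 80 and 58 with no replicate block, 751 higher in liver with no filter, 192 higher in LN with DESeq2, and 204 to 390 and 146 to 292 with 1 arm left out. They were lower by 1.5 times or more in liver without liver D5 (241), D19 (204) or STOP (213), and in LN without liver D19 (173), liver STOP (146), LN D19 (178) or LN STOP (156). The share difference was 21.4 to 28.0 points inside γδ T17-like cells and 26.4 to 31.9 over all cells with 1 arm left out. The γδ T17-like values of LN D0 rest on 44 cells.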
